A study of Mus musculus with 2 samples.

Results

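The 7 interleukin receptor genes described here, followed across immune cells of pancreatic islets, are Il7r, Il2ra, Il2rb, Il2rg, Il21r, Il4ra and Il18r1. They were chosen by symbol from the common gamma chain and IL-18 receptors, and all 7 were found among the 27998 genes counted. The cells carried CD45.1, the NOD form of the pan-leukocyte protein CD45, and were sorted from pancreatic islets of female NOD/ShiLtJ mice, an inbred strain that develops autoimmune diabetes spontaneously. Mice of 7 weeks and of 12 weeks were compared, all untreated as far as the labels say, with 1 droplet library (10x Chromium, 3' chemistry) per age. The number of mice behind a library is not given, so no test between ages was possible, and every interval below is a 95% interval of counting error only. It does not cover the spread between mice, libraries or cells.

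Il2rg encodes the common gamma chain, which pairs with a private chain in each receptor of this family. It joins the Il7r product in the IL-7 receptor, Il2rb in the IL-15 and intermediate-affinity IL-2 receptors, Il2ra plus Il2rb in the high-affinity IL-2 receptor, Il21r in the IL-21 receptor and Il4ra in the IL-4 receptor. These receptors signal through JAK1 and JAK3 to STAT proteins. IL-7 supports the survival of naive and memory T cells, IL-2 maintains Foxp3+ regulatory T cells, and IL-15 supports natural killer cells and memory CD8 T cells. Il18r1 belongs to the IL-1 receptor family instead. Its product binds IL-18 and signals with the Il18rap chain through MyD88. IL-7, IL-2 and IL-21 signalling have each been studied in diabetes of NOD mice.

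The genes lie on several chromosomes of GRCm38. In GENCODE M21, Il7r spans chr15:9505788-9530176 on the minus strand and Il2rb chr15:78479256-78495271 on the minus strand. Il2ra spans chr2:11642807-11693193, and Il2rg chrX:101264378-101268255 on the minus strand. Il4ra and Il21r are neighbours on the plus strand, at chr7:125552120-125579474 and chr7:125603429-125633570, and Il18r1 spans chr1:40465552-40500854. Il2ra overlaps the model Gm37881 and Il2rg the model Gm20489 on the same strand, so reads in the shared stretches could have been counted for either.

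RefSeq promoter windows of GRCm38.p6 matched 6 of the 7 genes. The 250 bases before the RefSeq start are shown for 3: Il7r, whose level differed between the ages in CD4 T cells, Il2ra, whose class level was highest in Foxp3+ T cells, and Il2rg, the chain found in every class. Each is written 5' to 3' on the gene's own strand. Capitals mark GGAAG on either strand (so also CTTCC), the core recognised by ETS factors, and TTCNNNGAA, the pattern recognised by STAT dimers.
Il7r, chr15:9529877-9530126, minus strand: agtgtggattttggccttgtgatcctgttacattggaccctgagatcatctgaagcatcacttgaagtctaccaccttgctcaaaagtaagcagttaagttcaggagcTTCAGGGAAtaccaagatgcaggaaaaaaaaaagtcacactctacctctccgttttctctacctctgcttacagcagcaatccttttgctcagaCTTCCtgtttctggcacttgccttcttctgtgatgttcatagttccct
Il2ra, chr2:11642542-11642791, plus strand: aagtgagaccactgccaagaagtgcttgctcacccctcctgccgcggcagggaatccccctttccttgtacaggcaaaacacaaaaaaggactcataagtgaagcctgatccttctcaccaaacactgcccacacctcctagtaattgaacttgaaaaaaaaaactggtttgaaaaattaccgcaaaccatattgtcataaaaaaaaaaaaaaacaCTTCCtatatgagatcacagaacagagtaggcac
Il2rg, chrX:101268256-101268505, minus strand: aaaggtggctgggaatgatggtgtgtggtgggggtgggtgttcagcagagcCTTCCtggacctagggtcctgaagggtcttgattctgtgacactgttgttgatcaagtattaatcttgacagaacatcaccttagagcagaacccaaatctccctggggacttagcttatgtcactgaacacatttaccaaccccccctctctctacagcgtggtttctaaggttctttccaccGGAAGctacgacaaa
The Il7r window holds CTTCC 48 bases and TTCAGGGAA 142 bases before the start, the Il2ra window CTTCC 34 bases before it, and the Il2rg window CTTCC 199 and GGAAG 15 bases before it. The Il7r window lies wholly inside the GENCODE span of the gene given above. Its positions therefore count from a RefSeq start within that span, not from the span's 5' end. Of the Il7r window, 86 bases also lie in an exon of another annotated transcript. GGAAG on either strand was present in 64.1% of 32851 windows of this length and TTCNNNGAA in 7.02%, so the ETS core is common in such windows. No binding was measured, and a match of letters is a description only.

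Cells were put into 7 classes by their counts of unique molecular identifiers (UMIs, 1 per captured transcript). CD4 T cells had a Cd4 UMI and none of Cd8a, Cd8b1 or Foxp3, and Foxp3+ T cells had a Foxp3 UMI. CD8 T cells had at least 2 Cd8a or Cd8b1 UMIs and no Cd4 or Foxp3. They were split at 3 or fewer and at 10 or more UMIs of Ccl5, a chemokine of effector and memory T cells. Every T cell class also needed a UMI of Cd3d, Cd3e or Cd3g. Ncr1+ cells had a UMI of Ncr1, which encodes NKp46 of natural killer cells. B cells had at least 2 Cd79a UMIs, and myeloid cells at least 10 of the C1q genes together or of Cst3. The libraries held 1113 and 2812 barcodes with 8701184 and 19288252 UMIs and shared 2 barcode sequences. After filtering, 1099 and 2741 cells remained, of which 802 and 2153 fell in a class. CD4 T cells numbered 286 and 740, Foxp3+ T cells 68 and 95, Ccl5-low CD8 T cells 69 and 209, Ccl5-high CD8 T cells 80 and 212, Ncr1+ cells 67 and 62, B cells 168 and 633, and myeloid cells 64 and 202.

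The defining genes of the classes were mostly where their names place them. A list of 6 T cell genes held 31.2 to 43.6 UMIs per 10000 in the 4 T cell classes, against 0.936 to 1.24 in B cells and 0.879 to 1.54 in myeloid cells. The list includes Cd3d, Cd3e and Cd3g, which the T cell classes were chosen by, so it is not an independent check. The Ncr1+ class was mixed. Of its cells, 55 (7 weeks) and 53 (12 weeks) also had a CD3 UMI. In this class T cell genes held 16.3 and 21.1 UMIs per 10000 beside 33.1 and 37.4 of natural killer genes, a list that includes Ncr1. The myeloid class was mixed too: genes of pancreatic endocrine cells held 70.4 and 201 UMIs per 10000 in it. In the other 6 classes endocrine genes ranged from 0.141 to 1.79, and they were higher at 12 weeks in each. In CD4 T cells exocrine acinar genes held 0.123 UMIs per 10000 at 7 weeks and 1.43 at 12 weeks. The 1 and 4 cells in which endocrine genes passed 10% of UMIs were all myeloid. The 4 calls between ages and the 27 between classes described below use no myeloid cells. Leaving those cells out could therefore not change these calls. The part of lower endocrine levels and of acinar genes was not tested.

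Il2rg, the shared chain, was present in every class. Levels are given as UMIs per 1000000 UMIs of the class (CPM), and are compared between classes, not between genes. At 7 weeks Il2rg ranged from 168 CPM in myeloid cells (interval 142 to 198) to 334 in Ccl5-low CD8 T cells (282 to 392). The 6 lymphocyte classes lay between 259 and 334 CPM, and neighbours in that order overlapped. At 12 weeks 5 of them lay between 268 and 337 CPM, while Ccl5-high CD8 T cells lay below that band at 185 CPM (165 to 207). This level overlapped that of myeloid cells, 169 CPM (153 to 185). Because cells of different depth differ in how often a transcript is seen, shares are given after thinning each cell to 3000 UMIs. At that depth Il2rg had a UMI in 42.0% to 72.6% of cells of the lymphocyte classes at both ages, and in 34.4% and 35.6% of myeloid cells.

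Il7r, which encodes the IL-7 receptor alpha chain, had the largest age ratio among members with at least 20 UMIs in a class, in CD4 T cells. Its level there was 68.1 CPM at 7 weeks (57.2 to 80.5, 138 UMIs) and 162 CPM at 12 weeks (150 to 174, 693 UMIs). The ratio was 2.38 (1.98 to 2.88). At 3000 UMIs per cell, 16.4% of 274 CD4 T cells (12.2% to 21.4%) had an Il7r UMI at 7 weeks and 32.4% of 740 (29.1% to 35.9%) at 12 weeks. B cells, which as mature cells are not known for the IL-7 receptor, gave the background: 1.23% (0.150% to 4.39%) at 7 weeks and 0.316% (0.0383% to 1.14%) at 12 weeks. Median depths before thinning were 5564 and 4566 UMIs in CD4 T cells, and 5062 and 4600 in B cells.

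The order of the classes by Il7r differed between the ages. At 7 weeks Ncr1+ cells led at 130 CPM (97.6 to 169), followed by Ccl5-low CD8 T cells at 96.9, Ccl5-high CD8 T cells at 84.1, CD4 T cells at 68.1, Foxp3+ T cells at 61.6 and myeloid cells at 34.6. Each of these overlapped its neighbour, and only B cells, at 7.16 CPM (2.88 to 14.8), lay apart. At 12 weeks Ncr1+ cells at 184.5 CPM (140 to 239), CD4 T cells at 162 and Ccl5-low CD8 T cells at 144 (123 to 167) overlapped in turn. Below a gap came Ccl5-high CD8 T cells at 70.1 (58.2 to 83.9), Foxp3+ T cells at 48.1 (33.8 to 66.3) and myeloid cells at 46.7 (38.7 to 55.9), which overlapped, and then B cells at 1.16 (0.317 to 2.98).

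**Figure D1:**
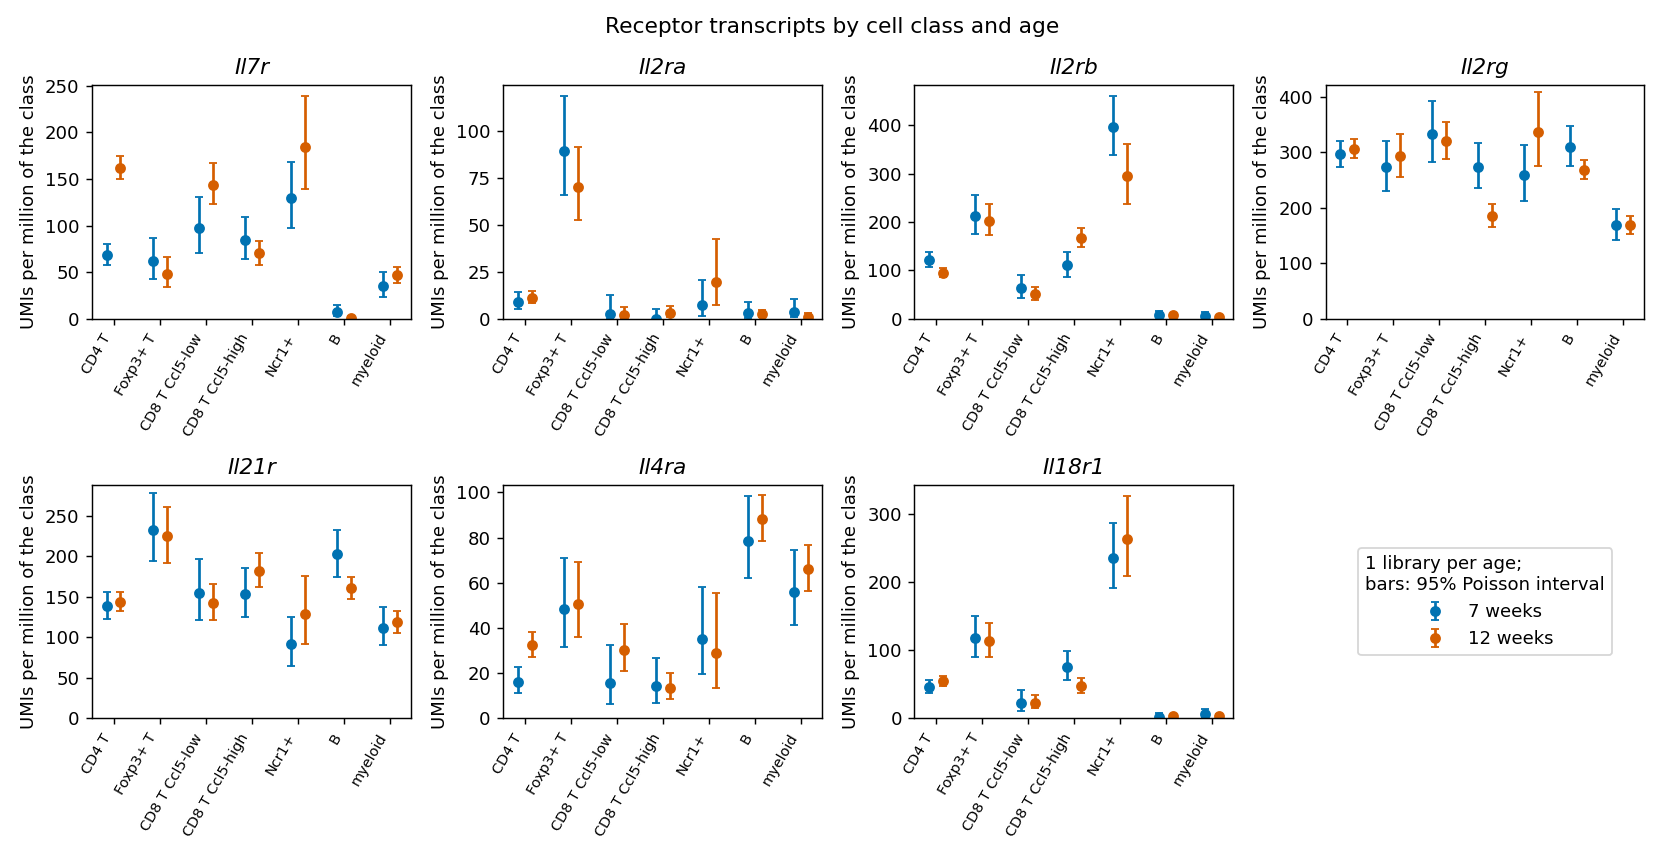
Levels of the 7 receptor genes in each cell class, in UMIs per 1000000 of the class, at 7 weeks (blue) and 12 weeks (orange). Points are single libraries, and bars are 95% Poisson intervals of counting error. Il2rg is present in every class, Il2ra stands out in Foxp3+ T cells, and Il2rb and Il18r1 in Ncr1+ cells. Il4ra is highest in B cells, which overlap myeloid cells at 7 weeks. Il7r is higher at 12 than at 7 weeks in CD4 T cells (162 against 68.1).

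The Il7r difference was present in CD4 T cells with few and with more Cd4 UMIs. Cells with 1 Cd4 UMI had 125 and 237 CPM (ratio 1.89, 1.42 to 2.56), and cells with 2 or more had 51.2 and 135 CPM (ratio 2.64, 2.07 to 3.39). The cells with a CD3 UMI that fell in no class held 29.6% of all Il7r UMIs at 7 weeks and 28.2% at 12 weeks. Their levels were 159 and 223 CPM, a ratio of 1.40 (1.19 to 1.66).

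In CD8 T cells Il7r was low in cycling cells at both ages. Among Ccl5-high cells, the 21 and 49 cycling cells (at least 3 UMIs of Mki67, Top2a and 4 other cycle genes) had 9.49 CPM (1.96 to 27.8) at 7 weeks and 4.06 (0.837 to 11.9) at 12 weeks. The 59 and 163 other Ccl5-high cells had 147 CPM (111 to 191) and 120 (99.6 to 144), so the cycling and other cells did not overlap at either age. Ccl5-low cells, of which 4 and 6 were cycling, had 96.9 CPM (70.2 to 131) at 7 weeks and 144 (123 to 167) at 12 weeks. The age ratio of the Ccl5-low class was 1.48 (1.06 to 2.12), just short of the 1.5 times used here to call a difference.

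Myeloid Il7r reached a high level in a small part of the class. The myeloid cells with at least 4 of 6 markers of plasmacytoid dendritic cells (Siglech, Bst2, Tcf4, Ccr9, Cox6a2, Klk1) numbered 4 at 7 weeks and 18 at 12 weeks. They held 398 CPM of Il7r (223 to 656) at 7 weeks and 432 (341 to 540) at 12 weeks. Cells with these markers, without a CD3 UMI and not meeting 2 classes, numbered 17 and 33, in a class or not. They had 244 CPM (171 to 338) and 425 (347 to 514), a ratio of 1.74 (1.18 to 2.62). No CD3 limit was set for the myeloid part. The other 60 and 184 myeloid cells had 17.5 CPM at both ages (9.56 to 29.3 and 12.5 to 23.7). Before thinning, they made up 11 of the 15 myeloid cells with an Il7r UMI at 7 weeks and 33 of the 50 at 12 weeks. Plasmacytoid dendritic cells are known as producers of type I interferon. This split was made after the values had been seen.

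The highest Il7r levels of the groups plotted were in 2 small groups of cells outside the 7 classes. Cells with at least 3 of 7 markers of type 2 innate lymphoid cells (Gata3, Rora, Il1rl1, Areg, Il5, Il13, Calca), 9 and 13 in number, had 707 CPM at both ages (499.9 to 970 and 516 to 946). Their Il2ra level was 260 CPM (142 to 437) and 173 (86.3 to 309), and no UMI of Il21r or Il18r1 was found in them. By a limit of 3 counts, so few cells allow levels of up to 55.8 CPM at 7 weeks and 47.1 at 12 weeks. Cells with at least 2 of 6 markers of IL-17-producing gamma delta T cells numbered 3 at each age and had 931 CPM (509 to 1562) and 982 CPM (490 to 1756).

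**Figure D2:**
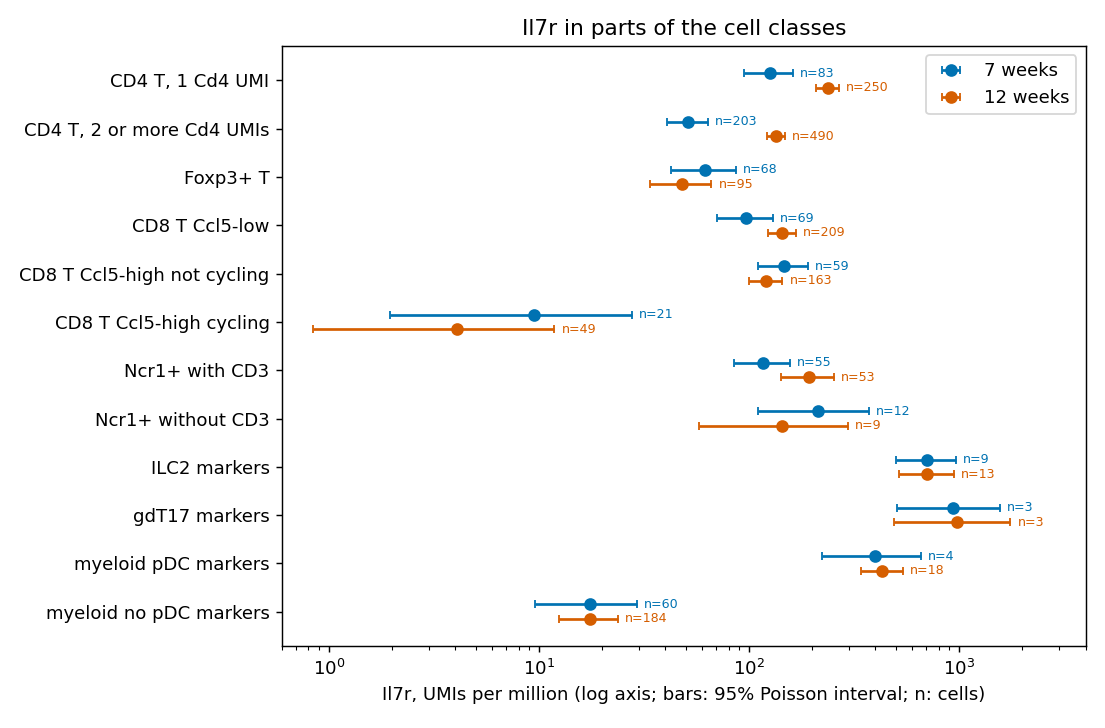
Il7r level in parts of the cell classes and in 2 small groups outside them, in UMIs per 1000000 on a log axis, at 7 weeks (blue) and 12 weeks (orange), with 95% Poisson intervals and the number of cells (ILC2, type 2 innate lymphoid cell; gdT17, IL-17-producing gamma delta T cell; pDC, plasmacytoid dendritic cell). Both parts of the CD4 T class are higher at 12 weeks (237 and 135 against 125 and 51.2), and cycling Ccl5-high CD8 T cells lie far below the others of their class (9.49 and 4.06 against 147 and 120).

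Il2ra, the alpha chain (CD25) of the high-affinity IL-2 receptor, reached its highest level of the 7 classes in Foxp3+ T cells. They held 35.0% of all Il2ra UMIs at 7 weeks and 26.6% at 12 weeks. The level there was 89.6 CPM (66.1 to 119) at 7 weeks and 70.2 CPM (52.7 to 91.5) at 12 weeks, and the other 6 classes lay between 0 and 19.4 CPM. Against CD4 T cells, with 8.88 and 11.2 CPM, the Foxp3+ level was 10.1 times (5.76 to 18.4) and 6.26 times (4.16 to 9.43) as high. In Ccl5-high CD8 T cells no Il2ra UMI was found in 80 cells at 7 weeks, which by the limit of 3 counts allows a share of up to 3.75% of cells with a UMI, and 5 UMIs were found at 12 weeks. In Ncr1+ cells 5 of the 6 UMIs at 12 weeks were in 1 cell, so that class gives no level to compare.

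Il2rb, the chain shared by the IL-2 and IL-15 receptors, was highest in Ncr1+ cells at both ages. It stood at 396 CPM (338 to 460) and 295 CPM (237 to 362) in them, followed without overlap at 7 weeks by Foxp3+ T cells at 213 (176 to 256). At 12 weeks Foxp3+ T cells had 203 CPM (172 to 237), just below the Ncr1+ interval, and overlapped Ccl5-high CD8 T cells at 166 (147 to 186). CD4 T cells had 121 (106 to 137) and 94.4 CPM (85.4 to 104), and Ccl5-low CD8 T cells 63.1 (41.9 to 91.2) and 50.8 (38.7 to 65.5). B and myeloid cells had 3.17 to 8.18 CPM. With CD3 or without, Ncr1+ cells held similar levels: 388 and 445 CPM at 7 weeks, and 292 and 308 at 12 weeks.

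Il21r, the IL-21 receptor chain, was present in every class. Foxp3+ T cells had the highest levels, 233 CPM (194 to 278) and 225 CPM (193 to 261). At 7 weeks their interval lay above those of CD4 T cells, at 139 CPM (123 to 156), Ccl5-high CD8 T cells, at 154 (126 to 186), myeloid cells and Ncr1+ cells. B cells, in which IL-21 drives antibody responses, had 203 CPM (175 to 233) and 161 (148 to 175). The lowest levels were 91.8 CPM in Ncr1+ cells at 7 weeks (65.3 to 126) and 119 CPM in myeloid cells at 12 weeks (106 to 133). Every class overlapped its neighbours in the order at both ages.

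Il4ra, the IL-4 receptor alpha chain, had its highest level of the 7 classes in B cells, with 78.7 CPM (62.1 to 98.4) and 88.3 CPM (78.7 to 98.8). Myeloid cells followed with 56.1 (41.2 to 74.5), which overlaps, and 66.1 CPM (56.5 to 76.9), which does not, and Foxp3+ T cells with 48.5 (31.7 to 71.1) and 50.7 (36.0 to 69.3). CD4 T cells had 16.3 CPM (11.2 to 22.9) at 7 weeks and 32.5 (27.3 to 38.3) at 12 weeks, which do not overlap. The lowest level at both ages was that of Ccl5-high CD8 T cells, 14.5 (6.95 to 26.7) and 13.4 CPM (8.52 to 20.2).

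Il18r1, the IL-18 binding chain, was highest of the 7 classes in Ncr1+ cells, with 235 CPM (192 to 286) and 262 CPM (208 to 326), and no other class overlapped them. Foxp3+ T cells were next with 118 (90.4 to 151) and 113 CPM (90.5 to 139). Ccl5-high CD8 T cells had 75.4 CPM (56.3 to 98.8) and 47.3 (37.6 to 58.8), CD4 T cells 46.4 (37.5 to 56.8) and 54.4 (47.7 to 61.9), and Ccl5-low CD8 T cells 22.5 (10.8 to 41.5) and 23.2 (15.3 to 33.8). B and myeloid cells had 2.05 to 5.96 CPM. Outside the classes, the 3 cells per age with markers of IL-17-producing gamma delta T cells had 1064 CPM (608 to 1728) and 268 (55.2 to 782), on 16 and 3 UMIs. Il18rap, the signalling partner, was likewise at 108 and 155 CPM in Ncr1+ cells, and at 13.0 and 18.7 CPM in Ccl5-high CD8 T cells.

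Between the ages, a difference was called where the CPM ratio was at least 1.5 times in either direction and its interval excluded 1, for genes with at least 20 UMIs over both sums. In CD4 T cells 2 of 7 tested members were higher at 12 weeks, where 2.85% of 9359 genes were, and 0 were lower, where 6.38% were. The members were Il7r, at 2.38 times, and Il4ra, at 1.99 times (1.36 to 3.01). At equal depth per cell the Il4ra ratio was 1.64 (0.986 to 2.85), which ends its call. Il2rb stood at 0.781 times (0.664 to 0.919), with an interval below 1 and a size short of the call. In CD4 T cells with 1 Cd4 UMI the Il2rb ratio was 0.496 (0.337 to 0.732), and in those with 2 or more it was 0.876 (0.733 to 1.05). For Il4ra the corresponding ratios were both 1.94 (1.03 to 3.96 and 1.19 to 3.30).

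In Ccl5-high CD8 T cells 1 of 6 tested members was higher at 12 weeks, against 3.50% of 7253 genes, and 1 was lower, against 4.37%. Il2rb was higher, at 166 against 110 CPM (ratio 1.51, 1.17 to 1.97). It sits at the limit, since the ratio was 1.498 with no doublet removal, and 1.53 at equal depth had an interval that reached below 1 (0.972). Il18r1 was lower, at 47.3 against 75.4 CPM (ratio 0.628, 0.438 to 0.908), but the ratio was 0.769 (0.498 to 1.21) without the 5 cells with most Il18r1 UMIs in each library. Il2rg, at 0.676 times (0.563 to 0.814), was just short of the call and came to 0.811 (0.587 to 1.13) at equal depth per cell. In the Ccl5-high cells that were not cycling, Il2rg stood at 0.596 times (0.477 to 0.747) and Il2rb at 1.82 times (1.23 to 2.75). In the cycling cells they stood at 0.847 (0.609 to 1.19) and 1.29 times (0.913 to 1.86).

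The other 5 classes gave no called member between the ages. In Foxp3+ T cells 0 of 7 tested members were called, where 5.85% of 5963 genes were higher and 5.72% lower, and ratios ran from 0.780 to 1.07. Among 6 tested members in Ccl5-low CD8 T cells 0 were called (3.16% of 5986 genes were higher and 5.81% lower), and among 6 in Ncr1+ cells 0 (3.61% of 4101 genes higher and 4.46% lower). The Ncr1+ ratio of Il2rb was 0.745 (0.571 to 0.967). In the Ncr1+ cells with CD3, Il7r stood at 1.65 times (1.07 to 2.54), which passes the limits of a call within that part. In those without CD3 it stood at 0.673 times (0.225 to 1.85), on 7 UMIs at 12 weeks and 12 at 7 weeks. In B cells 0 of 4 were called (4.89% of 8378 genes higher and 5.34% lower), with Il21r at 0.796 (0.676 to 0.941) and Il2rg at 0.866 (0.760 to 0.990). In myeloid cells 0 of 4 were called (7.46% of 8784 genes higher and 5.71% lower), with ratios from 1.003 to 1.35.

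**Figure D3:**
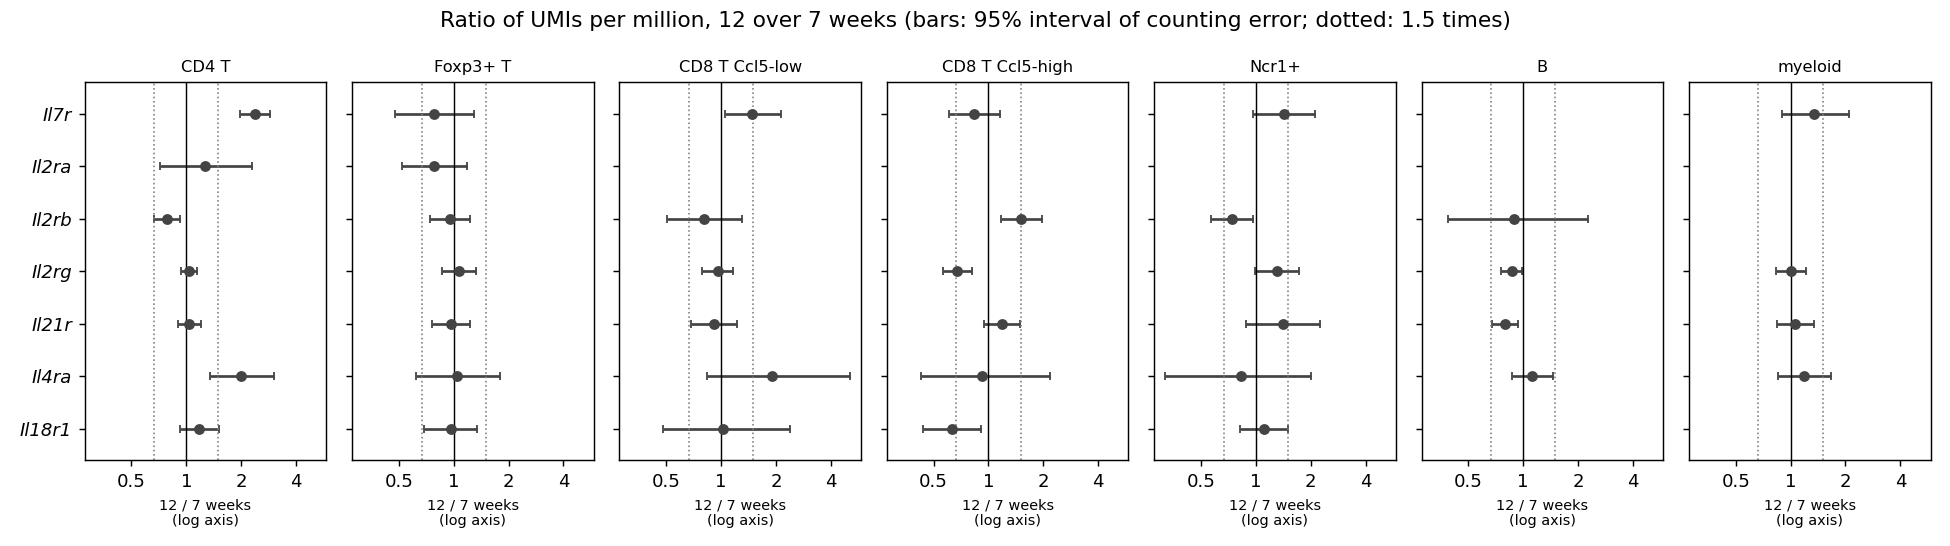
Ratio of the level at 12 weeks over that at 7 weeks for each member with at least 20 UMIs, 1 panel per class, on a log axis, with 95% intervals of counting error. Dotted lines mark 1.5 times in either direction. Il7r (2.38) and Il4ra (1.99) in CD4 T cells and Il2rb (1.51) in Ccl5-high CD8 T cells lie at or past the upper line, and Il18r1 (0.628) in Ccl5-high CD8 T cells past the lower one.

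Between classes within an age, Foxp3+ T cells were compared with CD4 T cells first. At 7 weeks 5 of 7 tested members were higher in Foxp3+ T cells, where 7.12% of 7639 genes were, and 0 were lower, where 3.51% were. At 12 weeks 5 of 7 were higher (10.5% of 8945 genes) and 1 lower (4.14%). The same 5 were higher at both ages: Il2ra, Il2rb at 1.76 (1.40 to 2.21) and 2.15 times (1.77 to 2.59), Il21r at 1.68 (1.35 to 2.09) and 1.56 (1.31 to 1.85), Il4ra at 2.98 (1.71 to 5.14) and 1.56 (1.07 to 2.24), and Il18r1 at 2.54 (1.81 to 3.53) and 2.08 (1.60 to 2.67). The member that was lower at 12 weeks was Il7r, at 0.297 times (0.207 to 0.413). At equal depth the calls of Il21r (1.29, 0.849 to 1.92) and Il4ra (1.60, 0.569 to 3.98) at 7 weeks were lost. At 12 weeks the same genes stood at 1.48 and 1.24 where T cells needed no CD3 UMI and cells could meet several class rules.

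The Il7r comparison at 7 weeks rests on few cells. It stood at 0.905 times (0.599 to 1.33), but 1 Foxp3+ T cell held 12 of the 33 UMIs and 5 cells held 72.7% of them. As a mean over cells the ratio was 0.578, and without the 5 cells with most Il7r UMIs in each class it was 0.355 (0.158 to 0.699).

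Ccl5-high and Ccl5-low CD8 T cells differed in the chains of IL-15 and IL-18 receptors. At 7 weeks 2 of 5 tested members were higher in Ccl5-high cells, where 12.2% of 5251 genes were, and 0 lower, where 4.06% were. At 12 weeks 2 of 6 were higher (19.6% of 7686 genes) and 3 lower (6.95%). Il2rb was 1.75 (1.12 to 2.80) and 3.27 times (2.46 to 4.40) as high, and Il18r1 3.34 (1.68 to 7.38) and 2.04 times (1.304 to 3.28). The 3 that were lower at 12 weeks were Il7r at 0.488 (0.383 to 0.621), Il2rg at 0.579 (0.497 to 0.674) and Il4ra at 0.446 (0.252 to 0.777). Cycling cells made up 26.3% and 23.1% of Ccl5-high cells and 5.80% and 2.87% of Ccl5-low cells. Without cycling cells the Il7r ratio at 12 weeks was 0.789 (0.618 to 1.01), that of Il4ra 0.574 (0.299 to 1.06) and that of Il2rb at 7 weeks 1.37 (0.779 to 2.46), which ends those 3 calls. At equal depth Il7r stood at 0.684 and Il4ra at 0.493 (0.216 to 1.06), neither of them called.

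Ncr1+ cells exceeded Ccl5-high CD8 T cells in most tested members. At 7 weeks 4 of 6 were higher, where 7.36% of 5352 genes were, and 1 was lower, where 10.6% were. At 12 weeks 4 of 6 were higher (7.81% of 6902 genes) and 0 lower (11.0%). Il2rb was 3.59 (2.72 to 4.77) and 1.78 times (1.39 to 2.26) as high, Il18r1 3.12 (2.21 to 4.46) and 5.54 times (4.02 to 7.63), and Il7r 1.54 (1.05 to 2.27) and 2.63 times (1.89 to 3.64). Il4ra was called at 7 weeks, at 2.44 times (1.02 to 6.07) on 15 and 10 UMIs, and Il2rg at 12 weeks, at 1.82 times (1.44 to 2.27). Il21r was the member that was lower at 7 weeks, at 0.598 times (0.403 to 0.870), with 0.710 (0.498 to 0.989) at 12 weeks. With classes set by the UMI rule alone, Il2rb at 12 weeks came to 1.295 times (1.02 to 1.63), which ends that call. The Il21r call at 7 weeks was lost at equal depth (0.608, 0.330 to 1.09), as was that of Il4ra (1.69, 0.582 to 5.24). Without cycling cells the Il7r ratio at 7 weeks turned to 0.910 (0.610 to 1.35), and that of Il4ra was 1.80 (0.718 to 4.91). Both calls at 7 weeks were also lost with at least 2 Cd4 UMIs and without the 5 cells with most UMIs. The Il7r call was lost too under the UMI rule alone, as a mean over cells, and with Foxp3 and Ccl5 read from thinned counts. The Il4ra call was lost too at a minimum of 50 UMIs.

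**Figure D4:**
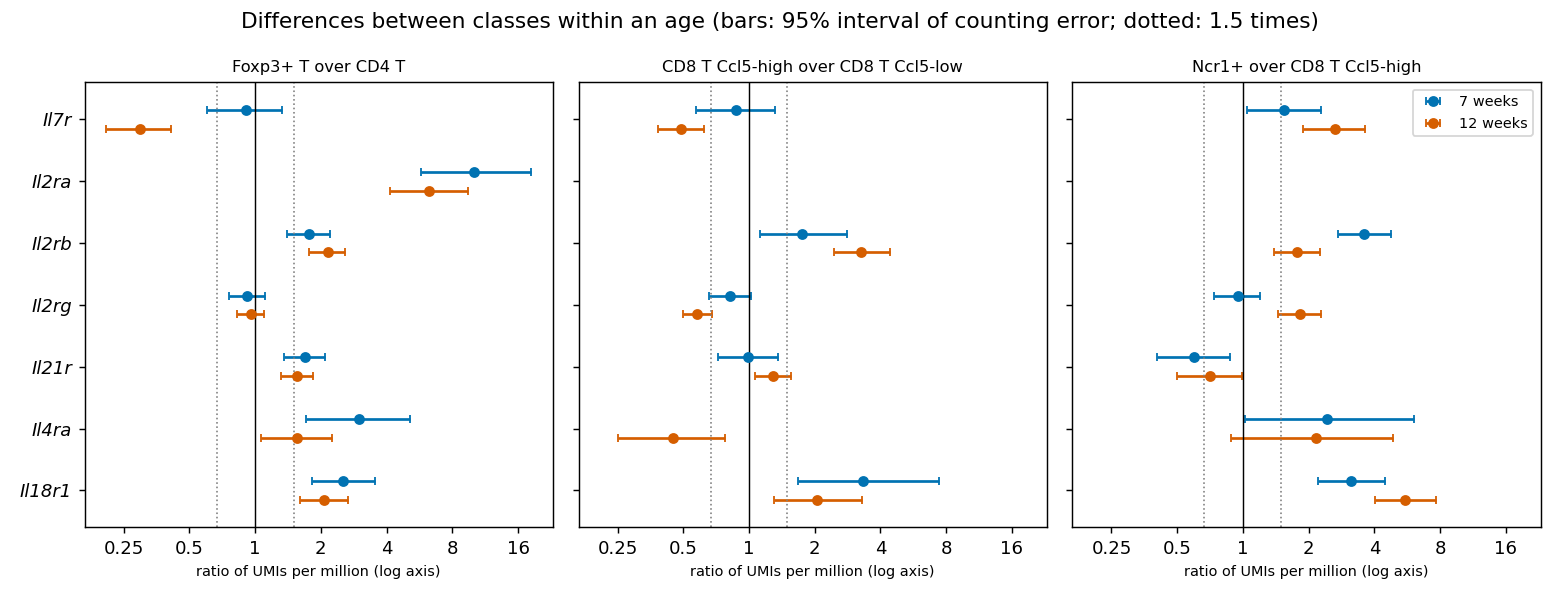
Ratio of levels between classes for each tested member at 7 weeks (blue) and 12 weeks (orange), on a log axis, with 95% intervals of counting error and dotted lines at 1.5 times. In Foxp3+ over CD4 T cells Il2ra lies furthest to the right (10.1 and 6.26), and Il7r stands at 0.905 at 7 weeks and 0.297 at 12 weeks.

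Within CD4 T cells, Il7r and Il2rb were found in the same cell less often than the product of their shares gives. Thinned to 3000 UMIs per cell, both genes had a UMI in 6 cells of 274 and in 26 of 740, where the product gives 12.0 and 48.7. The odds ratios were 0.372 and 0.368. Il2rb and Il4ra were together in 1 and 3 cells against products of 4.26 and 14.0, with odds ratios of 0.172 and 0.162. Without thinning these were 0.670 and 0.531, and for Il7r and Il2rb 0.497 and 0.327. Il7r and Il4ra were found together more often, in 6 and 31 cells against 2.63 and 22.4, with odds ratios of 3.37 and 1.80, and Il7r and Il18r1 in 11 and 47 cells against 6.90 and 34.4.

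In other classes pairs are given by cell counts and odds ratios, and were chosen after their values were seen. In Foxp3+ T cells Il2rb and Il2rg were together in 18 of 63 and 31 of 95 cells, with odds ratios of 2.38 and 4.47, and Il2ra and Il2rb in 8 and 14 cells, with 1.38 and 7.28. Il21r and Il18r1 were together in 3 and 7 Ccl5-low CD8 T cells, with odds ratios of 4.13 and 2.55, and Il2rg and Il4ra in 3 and 2 Ncr1+ cells, with 0.286 and 0.349. These odds ratios rest on few cells. At that depth Il18r1 had a UMI in 5 and 14 of the Ccl5-low CD8 T cells, and Il4ra in 10 and 4 of the Ncr1+ cells. All 3 chains of the high-affinity IL-2 receptor had a UMI in 6 Foxp3+ T cells (9.52%, 3.58% to 19.6%) at 7 weeks and 12 (12.6%, 6.70% to 21.0%) at 12 weeks. In CD4 T cells they did so in 1 and 2 cells (0.365% and 0.270%). Both chains of the IL-7 receptor had a UMI in 9.12% of CD4 T cells (5.99% to 13.2%) at 7 weeks and 22.4% (19.5% to 25.6%) at 12 weeks. The cells of a class share 1 library, and these odds ratios carry no test. Over all 77 combinations of pair and class with at least 5% of cells positive for each gene at both ages, 30 had odds ratios above 1 at both ages, 20 below 1 at both, and 27 on opposite sides.

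**Figure D5:**
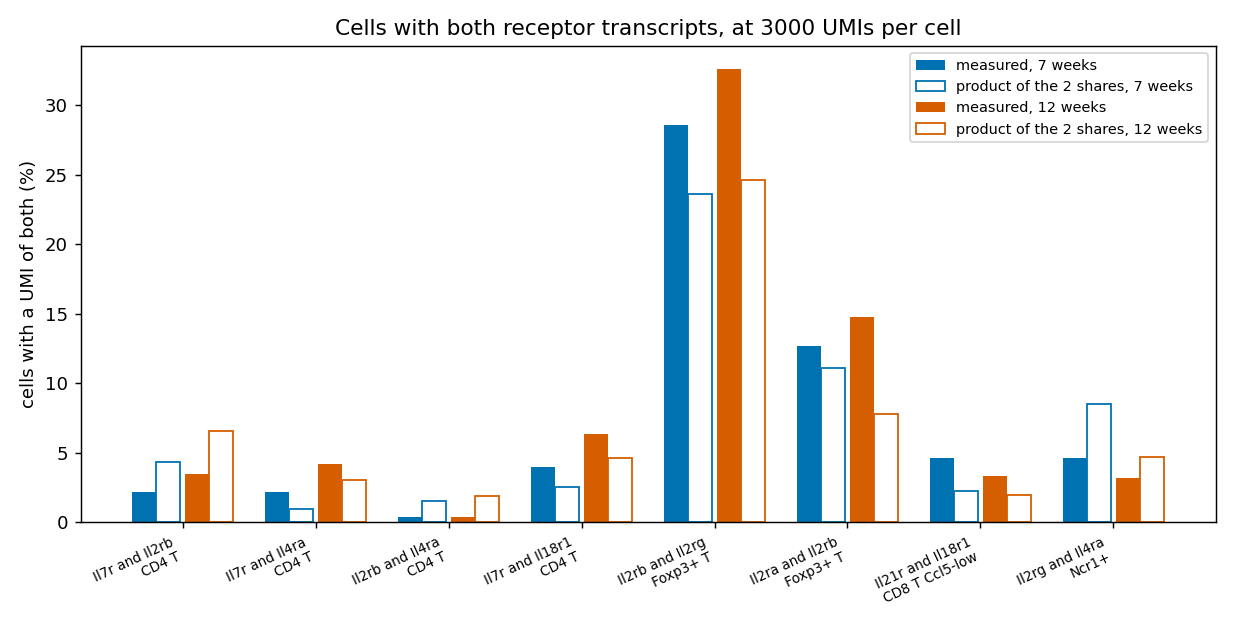
Share of cells with a UMI of both genes at 3000 UMIs per cell (filled) and the product of the 2 genes' shares (open), at 7 weeks (blue) and 12 weeks (orange), for 8 pairs chosen after their values were seen. In CD4 T cells Il7r with Il2rb lies below the product (2.19% and 3.51%), and in Foxp3+ T cells Il2rb with Il2rg lies above it (28.6% and 32.6%).

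Ligands of these receptors were sparse among the sorted cells. Il7, made mostly by stromal cells, had at most 1 UMI in every class except myeloid cells, which had 4 at 12 weeks. Il21, the T cell cytokine read by Il21r, held 50.3 CPM (41.0 to 61.1) and 48.1 CPM (41.8 to 55.2) in CD4 T cells, and 1.87 and 15.6 CPM in Foxp3+ T cells. That was 0.0371 times (0.00093 to 0.211, 1 UMI) and 0.324 times (0.165 to 0.578) the CD4 T level. The 12 UMIs of Foxp3+ T cells at 12 weeks were all within 2.11% of the 95 cells. Il2 held 23.2 CPM (17.0 to 30.8) and 27.3 CPM (22.6 to 32.8) in CD4 T cells. In B cells, which are not known to make it, it held 16.4 CPM (9.35 to 26.6), which overlaps, and 13.1 (9.54 to 17.5). In Foxp3+ T cells Il2 stood at 42.9 CPM at 7 weeks and 10.4 at 12 weeks, 1.85 (1.07 to 3.11) and 0.380 times (0.160 to 0.774) the CD4 T level. Of 9 ligand genes, 1 of 4 tested was higher at 12 weeks in CD4 T cells: Il4, with 26 UMIs against 2 (6.07 against 0.987 CPM, ratio 6.15, 1.54 to 53.5). Of the 26 UMIs, 65.4% were in 5 cells. Of all genes tested in CD4 T cells, 2.85% were higher.

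Genes downstream of the receptors were compared between the ages in the same way. In CD4 T cells 0 of 13 tested signalling genes (Jak1, Jak3, STAT genes, Myd88 and others) were called, with a median log2 ratio of -0.12, against 0.01 over all genes. Of all 9359 genes tested in this class, 2.85% were higher and 6.38% lower. Of 5 feedback genes, 1 was higher: Socs2, a STAT5 target that limits cytokine signalling, at 40.2 against 21.2 CPM (1.89 times, 1.35 to 2.71). Of 8 survival and growth genes, 1 was lower: Pim1, a kinase gene induced by STAT5, at 131 against 256 CPM (0.513 times, 0.454 to 0.579). Of 9 tested regulators, 1 was lower, Runx3, at 0.665 times (0.540 to 0.821). Pim1 was also lower in Foxp3+ T cells (0.501 times), Ccl5-low and Ccl5-high CD8 T cells (0.303 and 0.423), B cells (0.316) and myeloid cells (0.408). In Ncr1+ cells it stood at 0.786 times (0.601 to 1.02).

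In each of the other classes some pathway genes were called. Over all tested genes of these classes, 3.16% to 7.46% were higher and 4.37% to 5.81% lower at 12 weeks. The lists were not tested against these shares, so the genes are given as single values. In Foxp3+ T cells Il2 (0.242 times, 0.0936 to 0.561), Stat5b (0.487), which encodes the STAT protein used by IL-2 and IL-7, and Foxo1 (0.647) were lower at 12 weeks, and Myc was higher (2.40, 1.20 to 5.21). Among Ccl5-low CD8 T cells Bcl2, the survival gene that IL-7 maintains, was higher (208 against 135 CPM, 1.54 times, 1.16 to 2.08), and Pim2 (0.469), Foxo1 (0.586) and Klf2 (0.548) were lower. Ccl5-high CD8 T cells had more Myd88 (1.74), the adaptor of the IL-18 receptor, and Socs3 (1.61), and less Il15ra (0.493, 0.252 to 0.975), which presents IL-15, and Runx3 (0.666). In Ncr1+ cells Ptpn2, a phosphatase that acts on JAK1 and JAK3, was higher (2.85, 1.46 to 5.83), and Klf2 lower (0.485). B cells had lower Il9r (0.595), Irak1 (0.547), Klf2 (0.565) and Bach2 (0.638). In myeloid cells Il18bp, the soluble trap of IL-18, was higher (1.76, 1.07 to 3.05), Socs2 stood at 8.74 times on 79 against 3 UMIs (2.88 to 43.3) with 69.6% of the 79 in 5 cells, and Irak1 (0.600) and Mcl1 (0.560) were lower.

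Downstream genes were also compared between classes. The shares of all genes called in each comparison, given with the members above, apply here and to the other chains below. Cish, a feedback gene induced by STAT5, was 2.21 (1.44 to 3.35) and 2.44 times (1.74 to 3.39) as high in Foxp3+ as in CD4 T cells, and Pim1 2.30 and 2.25 times. Bcl2, a survival gene, was lower there, at 0.444 and 0.526 times. Bcl2 was 3.07 (2.24 to 4.23) and 4.91 times (3.80 to 6.34) as high in Ncr1+ as in Ccl5-high CD8 T cells, where 4 of 7 and 6 of 7 tested survival and growth genes were higher. Over all genes 7.36% and 7.81% were higher in that comparison. Of the regulators, Eomes and Tbx21, factors of effector and memory CD8 T cells known to act on Il2rb, were higher in Ccl5-high than Ccl5-low cells, Eomes at 6.51 and 4.88 times and Tbx21 at 2.79 and 5.89 times. Tcf7 (0.322 and 0.530) and Klf2 (0.316 and 0.481), factors of resting T cells, were lower there. Foxo1, known to act on Il7r, was 0.344 times as high (0.198 to 0.584) at 7 weeks and 0.803 times (0.571 to 1.13) at 12 weeks.

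The other receptor chains and signalling genes also differed between classes. Crlf2, the TSLP receptor chain that pairs with the Il7r product, was higher in Ccl5-high than Ccl5-low CD8 T cells, at 2.87 (1.62 to 5.41) and 2.29 times (1.67 to 3.18). In Ncr1+ over Ccl5-high CD8 T cells Il18rap was 8.30 (4.01 to 19.3) and 8.31 times (5.20 to 13.4) as high, Jak1 1.71 and 1.59 times, Tbx21 2.62 and 2.66 times, Pim2 5.08 and 5.65 times and Socs3 3.73 and 2.24 times. Between Foxp3+ and CD4 T cells 0 of 13 signalling genes were called at either age, while Tcf7 (0.221 and 0.271) and Klf2 (0.535 and 0.305) were lower in Foxp3+ T cells.

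Across the 14 class levels of both libraries, on a log2 scale of CPM plus 10, Il2rb and Il18r1 followed each other closely (Pearson r = 0.96). The genes nearest to Il2rb were Dok2 (0.97), Il18r1 and Klhl25 (0.95), and those nearest to Il18r1 were Dok2 (0.96), Il2rb and Tbx21 (0.93). Il7r was nearest to Emb (0.95), Arl4c (0.93) and Slco3a1 (0.90), and Il2ra to Foxp3, Tnfrsf18 and Tax1bp1 (each 0.91). Foxp3 defines the Foxp3+ class and is absent from the CD4 and CD8 T classes by rule. Its correlation with Il2ra is therefore no independent result. Il2rg was nearest to S1pr1 (0.91), Slc17a9 (0.88) and Aqr (0.87), Il21r to Pmm1 (0.88), Atg16l2 (0.87) and Ube2d2a (0.86), and Il4ra to Snx9 (0.90), Ccr6 (0.90) and Irf8 (0.89). The 14 points share 2 libraries, and the same classes recur at both ages.

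Within the 1026 CD4 T cells, after each library's mean was subtracted, correlations were weak. The largest for Il7r were Tsc22d3 (r = 0.34), Txk (0.31) and S1pr1 (0.30), the receptor by which T cells leave tissue. For Il2rb they were AW112010 (0.34), Lgals1 (0.33) and Lag3 (0.31), an inhibitory receptor gene of activated T cells. Il4ra was nearest to Igfbp4 (0.24), Lef1 (0.20) and Txk (0.17), and Il18r1 to S100a4 (0.28), S100a6 (0.23) and Rora (0.23). Il2ra was nearest to Socs2 (0.26), Serpina3g (0.25) and Bcl2l1 (0.24), while Il2rg and Il21r reached no more than 0.15, with Junb, and 0.13, with Dpf2. Among members, Il7r and Il2rb stood at -0.17 and Il7r and Il4ra at 0.16. Cells of a library share its depth and free RNA, and sparse counts hold such values low.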

How the data were processed

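The authors deposited whole-number counts of UMIs per gene and barcode, not normalized. Cell Ranger 1.3.1 and mm10 are named per the submitters' processing notes, and no annotation is named there. Barcodes with under 200 genes or over 10% mitochondrial UMIs were removed (4 and 8), then doublets scored by the Scrublet method at a loading rate of 0.8% per 1000 barcodes (10 and 63). T cell classes needed a UMI of Cd3d, Cd3e or Cd3g, and cells meeting 2 classes were left out (63 and 86). UMIs were summed per class and library, and carry exact Poisson intervals, ratios exact conditional binomial intervals, and shares Clopper-Pearson intervals. UMIs within a cell are not independent, so the intervals cover counting error only. For shares, cells were thinned to 3000 UMIs, which left out 53 shallower cells at 7 weeks and 0 at 12 weeks. Calls were also tried on simulated data, whose outcome is not given here and does not cover the spread between mice or libraries. Python 3.11.15, numpy 2.4.6, scipy 1.17.1, pandas 2.3.3, scikit-learn 1.9.0 and matplotlib 3.10.9 were used.

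The members and gene lists were chosen with earlier results of these data known. From each pathway list, genes called in a contrast were eligible to be named, at most 4 by the bound nearest 1. Genes most like a member were the 3 with the highest Pearson correlation, over class levels and over CD4 T cells, among genes with a UMI in at least 5% of cells. The parts of classes shown for Il7r, and the alternative without cells in which endocrine genes held over 10% of UMIs, were chosen after seeing the data. Alternatives changed the class rules, doublet removal, depth, UMI minimum and the weighting of cells.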

Additional observations from a re-analysis of the deposited data

Results flagged for a closer look

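Il2rb differed between the ages in opposite directions in different classes, with an interval that excluded 1 in each. Its 12 over 7 week ratio was below 1 in CD4 T cells (0.781, 0.664 to 0.919) and in Ncr1+ cells (0.745, 0.571 to 0.967), and above 1 in Ccl5-high CD8 T cells (1.51, 1.17 to 1.97). With 1 library per age the difference between the classes was not tested, and only the last passed 1.5 times. In parts of these classes some intervals reached 1. The ratio was 0.496 (0.337 to 0.732) in CD4 T cells with 1 Cd4 UMI and 0.876 (0.733 to 1.05) in those with 2 or more, 0.753 (0.562 to 1.001) in Ncr1+ cells with CD3, and 1.29 (0.913 to 1.86) in cycling and 1.82 (1.23 to 2.75) in other Ccl5-high CD8 T cells. At equal depth per cell the Ccl5-high ratio was 1.53 (0.972 to 2.495).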

How the results depend on the processing

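With 1 library per age, no replicate could be left out and no paired analysis was possible because each age has a single library. The Il7r ratio in CD4 T cells stayed between 2.22 and 2.85 under the 8 alternatives run on it. These include leaving out endocrine cells, which took out no CD4 T cell. Of the 4 member calls between ages, 4 held under the UMI rule alone (no CD3 UMI needed, cells allowed in several classes), with at least 2 Cd4 UMIs, without cycling cells, at a minimum of 50 UMIs and as a mean over cells. Leaving out endocrine cells could not change them, since all were myeloid. With no doublet removal 3 held, at equal depth 2 and without the 5 cells with most UMIs of a gene 3. Of the 27 calls between classes, 21 to 27 held, and 1 turned: Il7r in Ncr1+ over Ccl5-high CD8 T cells at 7 weeks, at 0.910 without cycling cells.

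Counts of calls moved more. The shares of all genes called under each alternative are not given here. Whether members or pathway genes moved more than other genes can therefore not be read from these counts. Members higher at 12 weeks went from 3 to 6 under the UMI rule alone, 5 with at least 2 Cd4 UMIs and 9 without the 5 cells with most UMIs, which removes a larger share of the smaller library. Members lower went from 1 to 7 under the UMI rule alone, to 2 with no doublet removal, at equal depth, without cycling cells and as a mean over cells, and to 0 without the 5 cells. Members lower between classes went from 5 to 3 at equal depth. Pathway genes higher at 12 weeks went from 9 to 15 under the UMI rule alone and 18 without the 5 cells, and those lower from 22 to 11 at equal depth and 11 without the 5 cells. Between classes, pathway genes higher went from 47 to 31 and lower from 30 to 16 at equal depth. Thinning lowers the number of UMIs, and the cause of the other changes was not tested. Il2ra had too few UMIs to compare outside CD4 and Foxp3+ T cells.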
